A study of Oncorhynchus mykiss with 15 samples.

Results

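Liver microRNA levels of rainbow trout (Oncorhynchus mykiss) after 24 h of hypoxia were compared with those after 3 h of hypoxia, with 3 libraries on each side. All rows of the deposited table entered, and rows with the same 15 values were counted once. The comparison used 6 of the 15 small RNA libraries in the series; the other 9 (control fish, 12 h of hypoxia and 3 h of reoxygenation) entered the fit only through the shared estimate of the spread. Of 1213 rows with 1019 distinct sets of values, 622 averaged 10 or more across all 15 libraries and were tested, among them 87 predicted candidates with no miRNA name. All libraries came from liver of wild-type fish, frozen in liquid nitrogen and extracted with Trizol. The labels do not give the oxygen level, the age of the fish or whether each library is a separate animal, so p-values here reflect only library-to-library spread, which may be technical.

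MicroRNAs are short RNAs that guide Argonaute proteins to messenger RNAs and lower their translation or stability. Pairing rests mainly on the seed, bases 2 to 8 counted from the 5′ end, so a microRNA with an extra base at that end presents another seed. miR-122 is the dominant microRNA of hepatocytes, and miR-210 is the microRNA best known to be induced by hypoxia-inducible factor in mammals. A precursor hairpin gives a 5p and a 3p strand, one of which usually accumulates.

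Sequences of the rows on which the results turn are shown 5′ to 3′ with T for U, as in the deposited table. The first set holds rows that were higher at 24 h and, for miR-92a, the most abundant row with the seed of miR-25, and capitals mark the seed. The miR-101 pair shares its seed, as do miR-25 and miR-92a.
ssa-miR-101b-3p_R+1: tACAGTACtatgataactgaag
ssa-miR-101a-3p: tACAGTACtgtgataactgaag
ssa-miR-152-3p: tCAGTGCAtaacagaactttg
ssa-miR-192b-5p: cCTGTCAGttctgtaggccact
ssa-miR-128-3p: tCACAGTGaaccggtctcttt
ssa-miR-25-3p: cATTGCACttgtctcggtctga
ssa-miR-92a-3p: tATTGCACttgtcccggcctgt

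The second set shows rows that were lower at 24 h beside relatives with the same seed, again in capitals, which did not pass the test. Within each seed the rows differ in the bases that follow it.
ssa-miR-22b-3p: aAGCTGCCagttgaagagctgt
ssa-miR-22a-3p: aAGCTGCCagctgaagaactgt
ssa-miR-15d-5p: tAGCAGCAcagaatggtttgt
ssa-miR-16a-5p: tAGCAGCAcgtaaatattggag
ssa-miR-15a-5p_L-2_1ss18GA: tAGCAGCAcgtcatgatttgt

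The third set shows forms of common microRNAs that carry extra bases at the 5′ end, in capitals, under the main form of each.
ssa-miR-122-5p_R-1: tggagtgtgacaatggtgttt
fru-miR-122_L+2R-1: AAtggagtgtgacaatggtgttt
rno-miR-122-5p_L+1R-1: Ctggagtgtgacaatggtgttt
ssa-miR-26a-5p: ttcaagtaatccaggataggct
ola-miR-26_L+2R+1: AAttcaagtaatccaggataggct
ssa-miR-92a-3p: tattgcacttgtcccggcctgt
sha-miR-92a_L+2R+4: AAtattgcacttgtcccggcctgt

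Values are the authors' normalized numbers, rounded to whole numbers, on a scale that is not given. Read depth is therefore unknown. Summed over distinct rows, the 3 h libraries held 2498984, 2529704 and 2218703, and the 24 h libraries held 6181106, 3048356 and 2820841. Library 1 of 24 h stood apart: miR-122 rows made up 59.0% of its sum, against 21.5% to 35.7% in the other 5 libraries, and its Spearman correlation with libraries 2 and 3 of 24 h was 0.784 and 0.823, against 0.925 between those 2 and 0.914 to 0.934 within 3 h. Results are therefore also given without it. Of the cell type markers, the hepatocyte rows (miR-122, miR-192 and miR-194) summed to between 501281 and 940142 at 3 h and between 742411 and 3727886 at 24 h, so the labelled tissue carried its defining microRNA in every library.

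At 24 h of hypoxia, 27 of the 622 rows differed from 3 h in limma at an adjusted p under 0.05, which is 4.34% of those tested; 155 rows (24.9%) had an unadjusted p under 0.05. Of the 27, 17 were higher (2.73%) and 10 were lower (1.61%). Both forms of miR-101, miR-152, miR-192b, miR-25, miR-128 and miR-499b were among the higher rows, and miR-15d, miR-22b, miR-138 and the row matched to mammalian miR-486 were among the lower ones. In all 27 the 3 libraries of 24 h lay outside the range of the 3 libraries of 3 h, which was so for 190 of the 622 rows (30.5%). The median log2 difference over all tested rows was -0.25.

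**Figure D1:**
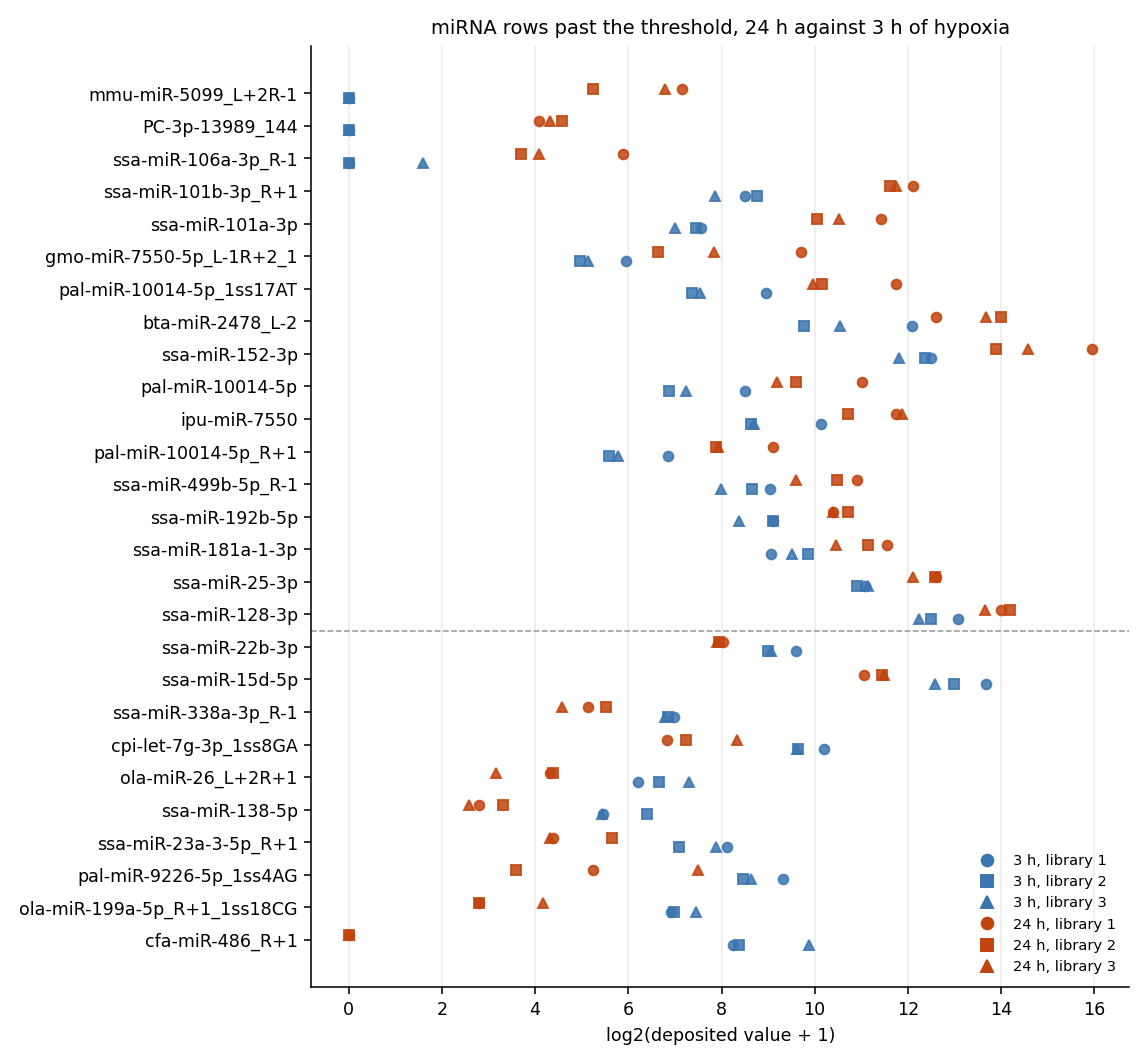
Each line is one of the 27 miRNA rows past the adjusted threshold, the points are the 6 libraries, and the x axis is log2(deposited value + 1); the dashed line divides the 17 higher from the 10 lower rows. The red points of 24 h and the blue points of 3 h do not overlap in any row.

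Among rows past the threshold and above 0 in all 6 libraries, the largest rises were those of miR-101, a microRNA known in mammals to repress the histone methyltransferase EZH2. ssa-miR-101b-3p_R+1 had values of 363, 436 and 231 at 3 h and of 4383, 3149 and 3413 at 24 h. It was 10.9-fold higher at 24 h, a log2 difference of 3.44 ± 0.48 (SE) with a limma adjusted p of 0.00117. ssa-miR-101a-3p had 189, 174 and 128 at 3 h and 2724, 1055 and 1468 at 24 h. Every 24 h library exceeded every 3 h library in both rows. The 9.95-fold rise of miR-101a was a log2 difference of 3.31 ± 0.50 (limma adjusted p = 0.00162). Without library 1 of 24 h the log2 differences were 3.30 and 2.94, and both rows stayed past the threshold (limma adjusted p = 0.00969 and 0.0133).

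A further pair of rows with the miR-101 seed had log2 differences of 2.48 and 2.54 and did not pass the test. The opposite strand of the hairpin was measured too. ssa-miR-101b-5p_L+1R-3 had 3805, 5008 and 5972 at 3 h and 1798, 3081 and 2987 at 24 h, a log2 difference of -0.93 ± 0.33 that did not pass (limma adjusted p = 0.109). The 5p row had the larger value of the strands in every 3 h library, and the 3p row had it in every 24 h library. In the other groups ssa-miR-101b-3p_R+1 stood at 526 ± 264 in control fish, 6126 ± 1553 at 12 h of hypoxia and 8708 ± 4589 after reoxygenation (SD, n = 3 each).

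miR-152 and miR-192b, both on the hepatocyte list, were also higher. miR-152 belongs to the miR-148 family, known in mammals to repress the DNA methyltransferase DNMT1, and was the most abundant row past the threshold. ssa-miR-152-3p had 5782, 5241 and 3561 at 3 h and 63163, 15118 and 24315 at 24 h. All 24 h libraries were above all 3 h libraries, with library 1 the highest. The 5.99-fold rise was a log2 difference of 2.58 ± 0.55 (limma adjusted p = 0.0145), and without library 1 the difference was 2.01 and did not pass (limma adjusted p = 0.0638). The 6 other tested rows with its seed had differences from -1.38 to 1.89, none past the threshold. The most abundant of them, ssa-miR-148a-3p_R-1, had 27191, 21818 and 19872 at 3 h and 60976, 21247 and 26801 at 24 h, groups that overlapped.

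miR-192 is enriched in liver, gut and kidney of mammals. ssa-miR-192b-5p had 548, 549 and 330 at 3 h and 1334, 1675 and 1339 at 24 h. The libraries of each group lay close together and did not overlap with the other group. The log2 difference was 1.64 ± 0.42 (limma adjusted p = 0.0383), and 1.69 without library 1 (limma adjusted p = 0.0789). The 4 other rows with its seed also had differences above 0, from 0.28 to 3.15, and did not pass. Among them, ssa-miR-192a-3p, ola-miR-192-3p_R+1_1ss11CA and ccr-mir-192-p3 are named for the 3p strand. ssa-miR-192a-5p_R+1 does not have this seed, so the row called miR-192b-5p carries the seed of rows named 3p.

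A pair of members of the miR-17-92 family clusters, which are known for promoting cell proliferation in mammals, were higher. ssa-miR-25-3p, which was named after its values were seen, had 2158, 1930 and 2265 at 3 h and 6222, 6152 and 4431 at 24 h. This 2.62-fold rise was the most precisely measured of the 27, with a log2 difference of 1.39 ± 0.28 (limma adjusted p = 0.0132), and it passed without library 1 as well (1.30, limma adjusted p = 0.0474). ssa-miR-92a-3p, which has the same seed, had 21530, 17466 and 20065 at 3 h and 21900, 14245 and 28054 at 24 h, a log2 difference of 0.07 ± 0.29 with a 95% interval of -0.55 to 0.69. As a percent of miR-92a in the same library, a measure that no scaling of libraries can move, miR-25 was at 10.02, 11.05 and 11.29 at 3 h and at 28.4, 43.2 and 15.8 at 24 h.

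The other member was a minor strand. ssa-miR-106a-3p_R-1 had 0, 0 and 2 at 3 h and 58, 12 and 16 at 24 h (limma adjusted p = 0.0132), while its main strand ssa-miR-106a-5p had 1056, 953 and 1434 at 3 h and 384, 693 and 446 at 24 h. That main strand had a log2 difference of -1.20 ± 0.57 and did not pass (limma adjusted p = 0.206). The 3p strand stood at 10.3 ± 7.57 in control fish and 26 ± 1 at 12 h (SD, n = 3 each), so 3 h was the group in which it was near 0.

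ssa-miR-128-3p, best known from mammalian brain, had 8610, 5744 and 4823 at 3 h and 16451, 18675 and 12880 at 24 h. Its log2 difference of 1.35 ± 0.36 passed narrowly (limma adjusted p = 0.0485). ssa-miR-499b-5p_R-1, whose mammalian relative lies in an intron of a myosin heavy chain gene, had 525, 404 and 252 at 3 h and 1905, 1434 and 777 at 24 h, a log2 difference of 1.77 ± 0.45 (limma adjusted p = 0.0383). Other muscle markers were low and went in both directions. miR-1 had 24, 13 and 14 at 3 h and 94, 11 and 15 at 24 h, groups that overlapped. miR-133 summed to 137, 80 and 98 at 3 h and to 50, 37 and 61 at 24 h, and miR-206 to 29 at most at 3 h and 8 at most at 24 h.

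ssa-miR-181a-1-3p is the minor strand of miR-181a, a regulator of T cell receptor signalling in mammals. It had 530, 926 and 725 at 3 h and 3002, 2256 and 1394 at 24 h, a log2 difference of 1.58 ± 0.40 (limma adjusted p = 0.0380). The main strand ssa-miR-181a-5p had 17783, 19958 and 30158 at 3 h and 7322, 17524 and 22756 at 24 h and did not pass (-0.62 ± 0.42, limma adjusted p = 0.389). None of these 3 rows (miR-128, miR-499b and miR-181a-1-3p) passed without library 1, where their log2 differences were 1.32, 1.48 and 1.32.

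Of the 5 other named rows that rose, apart from the miR-10014 rows treated below, 4 match entries for which no role is given here, and 1 is a predicted candidate. bta-miR-2478_L-2 had 4357, 877 and 1498 at 3 h and 6218, 16226 and 13069 at 24 h, a log2 difference of 2.62 ± 0.54 (limma adjusted p = 0.0132), and 3.02 without library 1 (limma adjusted p = 0.0179). Of 3 other tested miR-2478 forms none had a difference above 0. The most abundant of them, bta-miR-2478_L+2, had -0.67 (limma adjusted p = 0.512). ipu-miR-7550 had 1119, 393 and 416 at 3 h and 3440, 1669 and 3752 at 24 h, a log2 difference of 2.29 ± 0.46 (limma adjusted p = 0.0132). Both bta-miR-2478_L-2 and ipu-miR-7550 end in CCA, the end that mature transfer RNAs carry. Of the 38 tested rows with that end, 2 were higher and 1 was lower (7.89% called), and their median log2 difference of -0.28 lay near the -0.25 of all rows.

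gmo-miR-7550-5p_L-1R+2_1 had 61, 30 and 34 at 3 h and 831, 98 and 229 at 24 h (2.71 ± 0.73, limma adjusted p = 0.0494), and without library 1 its difference was 1.89 and did not pass (limma adjusted p = 0.143). mmu-miR-5099_L+2R-1 was listed at 0 in all 3 h libraries and at 142, 37 and 109 at 24 h (limma adjusted p = 0.00746). The predicted candidate PC-3p-13989_144 was also listed at 0 in all 3 h libraries and at 16, 23 and 19 at 24 h. It reached the filter mean of 10 only through the 24 h libraries (7.92 over the other 12), so its call is no support for a difference; the other 26 called rows reached the filter without their higher group. mmu-miR-5099_L+2R-1 passed without library 1 as well.

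**Figure D2:**
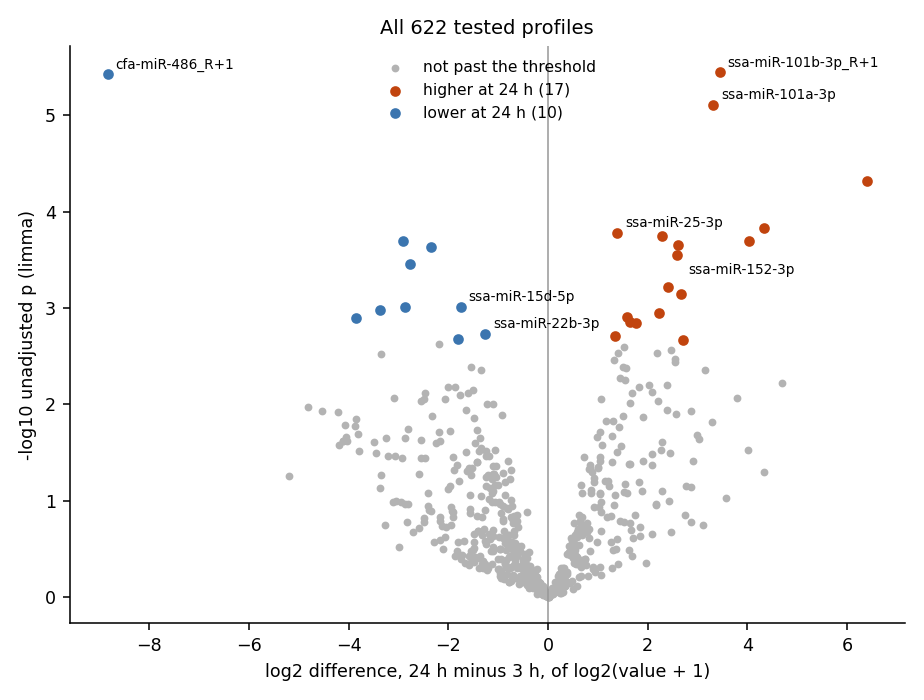
Each point is one of the 622 tested rows, with the log2 difference (24 h minus 3 h) on the x axis and -log10 of the unadjusted limma p on the y axis. The 17 higher rows are red and the 10 lower rows blue, and the 2 miR-101 rows and the miR-486 row have the smallest p.

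Among the rows that fell, miR-15d was the most abundant. The miR-15 family shares its seed with miR-16 and is known in human cells to restrain cell cycle and survival genes such as BCL2. ssa-miR-15d-5p had 13043, 8160 and 6165 at 3 h and 2143, 2793 and 2853 at 24 h. It was 3.37-fold lower at 24 h, a log2 difference of -1.75 ± 0.43 (limma adjusted p = 0.0355). Without library 1 the difference was -1.62 and did not pass (limma adjusted p = 0.0824).

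Its seed relatives went in both directions. Of 14 other tested rows with the same seed, 5 had a difference above 0 and 9 below, and none passed. ssa-miR-15a-5p_L-2_1ss18GA had 1795, 4339 and 2034 at 3 h and 6401, 8174 and 5661 at 24 h, a log2 difference of 1.41 just outside the threshold (limma adjusted p = 0.0562). As a percent of ssa-miR-16a-5p in the same library, miR-15d was at 116, 48.0 and 46.1 at 3 h and at 13.4, 17.4 and 35.7 at 24 h. The groups did not overlap on this measure either.

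The rows of miR-22, one of the most abundant liver microRNAs, did not move together. ssa-miR-22b-3p had 774, 511 and 537 at 3 h and 260, 246 and 240 at 24 h, a log2 difference of -1.26 ± 0.33 (limma adjusted p = 0.0485). ssa-miR-22a-3p, the second most abundant row of the 6 libraries, had 136153, 140936 and 101249 at 3 h and 490384, 258157 and 349562 at 24 h. Its groups did not overlap, but its log2 difference of 1.50 ± 0.44 did not pass (limma adjusted p = 0.0662). All 4 other rows with the miR-22 seed had differences above 0, from 0.59 to 1.50. As a percent of miR-22a in the same library, miR-22b was at 0.569, 0.363 and 0.530 at 3 h and at 0.0530, 0.0953 and 0.0687 at 24 h.

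The row cfa-miR-486_R+1 matches miR-486, a red blood cell microRNA in mammals, and was listed at 0 in every 24 h library after 303, 331 and 943 at 3 h (limma adjusted p = 0.00117). It stood at 197 ± 76.6 in control fish (SD, n = 3) and was listed at 0 at 12 h. The other red blood cell markers were not at 0. miR-451 rows summed to 3325, 5613 and 7363 at 3 h and to 1849, 3741 and 3995 at 24 h, and miR-144 rows to 287, 603 and 752 at 3 h and to 76, 252 and 548 at 24 h. Fewer cells of a type and less RNA per cell cannot be told apart in such bulk samples.

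The miR-486 row is 1 of 34 tested rows in a class matched to mammalian entries only. Their miRNA numbers have at most 3 digits and are carried by no row matched to a non-mammalian entry. Rows with longer numbers, such as bta-miR-2478_L-2, mmu-miR-5099_L+2R-1 and the miR-10014 rows, are not in this class. The 33 class rows beside miR-486 summed to 983, 659 and 3384 at 3 h and to 3147, 122 and 198 at 24 h. In control fish they summed to 1828, 1482 and 2919, and at 12 h to 121, 341 and 280. The miR-486 row had 285, 145 and 161 in control fish and 0 in each 12 h library. In reoxygenation the class rows summed to 30895 in library 1 against 118 and 82 in its companions. The miR-486 row was at 65 in that library 1, where the class sum was highest, against 0 in the other 2 libraries of that group. It was at 0 in all 24 h libraries, also in library 1, where the class sum was high. The part of the mammal-matched rows in the miR-486 result was not tested. Without library 1, a second row of this class passed: bta-miR-127 had 87, 50 and 121 at 3 h and 105, 0 and 0 at 24 h, with library 1 the only 24 h library above 0 (limma adjusted p = 0.0383 without it).

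The other 7 lower rows were all below the level of miR-15d. ssa-miR-23a-3-5p_R+1, the minor strand of miR-23a, had 278, 135 and 236 at 3 h and 20, 49 and 19 at 24 h (-2.91 ± 0.60, limma adjusted p = 0.0132), and its main strand ssa-miR-23a-3p_R+1 had a difference of 0.05 ± 0.44. cpi-let-7g-3p_1ss8GA had 1167, 795 and 784 at 3 h and 112, 149 and 321 at 24 h (-2.35 ± 0.49, limma adjusted p = 0.0132), while ssa-let-7g-5p, its main strand, had a difference of 0.91 ± 0.44 (limma adjusted p = 0.212). The other tested form of let-7g-3p, ssa-let-7g-3p_1ss22CT, had a difference of 0.37 (limma adjusted p = 0.737). ssa-miR-138-5p had 43, 84 and 42 at 3 h and 6, 9 and 5 at 24 h (-2.86 ± 0.70, limma adjusted p = 0.0355). Of the 3, ssa-miR-138-5p was the lowest in level, and the main strands of the other two did not pass.

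ssa-miR-338a-3p_R-1 had 125, 115 and 110 at 3 h and 34, 45 and 23 at 24 h (-1.80 ± 0.48, limma adjusted p = 0.0494). ola-miR-26_L+2R+1 had 73, 100 and 157 at 3 h and 19, 20 and 8 at 24 h (-2.76 ± 0.60, limma adjusted p = 0.0168) and was the only one of the 10 lower rows, beside miR-486, that passed without library 1. Summed with other forms named miR-26 without a letter, 5p or 3p, its difference was -1.52 and did not pass (limma adjusted p = 0.107). That sum leaves out the main form, ssa-miR-26a-5p. pal-miR-9226-5p_1ss4AG (642, 353 and 394 against 37, 11 and 179) and ola-miR-199a-5p_R+1_1ss18CG (119, 125 and 175 against 6, 6 and 17) carried a base change against their entry. Summed over the forms labelled miR-9226-5p and miR-199a-5p, their differences of -3.37 and -3.85 became -0.03 and -0.12. The limma adjusted p were 0.974 and 0.891. Rows named miR-9226 without 5p or 3p were left out of that sum.

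**Figure D3:**
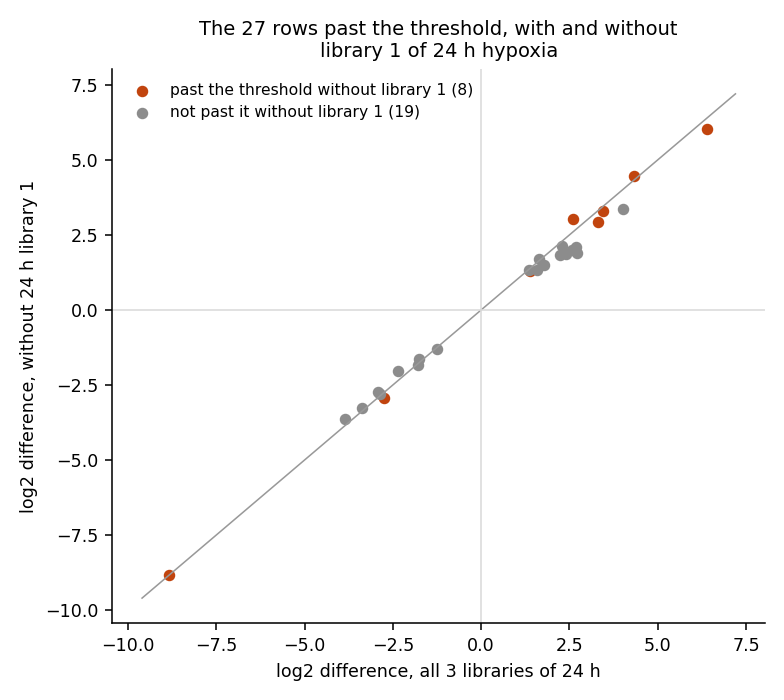
Each point is one of the 27 rows past the threshold, with its log2 difference from all 3 libraries of 24 h on the x axis and without library 1 on the y axis; the line marks equal values. All 27 keep their direction, and the 8 red points also pass the threshold without library 1. Of these 8, PC-3p-13989_144 reached the filter only through the 24 h libraries.

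Leaving out library 1 of 24 h left 9 rows past the threshold, 8 of them among the 27, and all 27 rows kept their direction. Those 8 were both miR-101 rows, miR-25, bta-miR-2478_L-2, mmu-miR-5099_L+2R-1, PC-3p-13989_144, the miR-486 row and ola-miR-26_L+2R+1. Of them, PC-3p-13989_144 reached the filter only through the 24 h libraries, so its call is no support here either. The count also fell to 8 without library 2 of 3 h and to 5 without library 3 of 3 h, and both miR-101 rows, the miR-486 row and mmu-miR-5099_L+2R-1 passed in each of these. When every library was scaled to the same total, 18 of the 27 rows still passed. The 9 that did not were all among the higher rows: miR-25, miR-128, miR-181a-1-3p, miR-192b, miR-499b, bta-miR-2478_L-2, ipu-miR-7550, gmo-miR-7550-5p_L-1R+2_1 and pal-miR-10014-5p_R+1. Their directions were kept, with log2 differences of 0.75 for ssa-miR-25-3p (limma adjusted p = 0.265) and 0.71 for ssa-miR-128-3p (limma adjusted p = 0.347).

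The most abundant rows of the liver did not pass the test. ssa-miR-122-5p_R-1 had 781362, 898129 and 473446 at 3 h and 3647914, 1087693 and 708905 at 24 h, groups that overlapped. Its log2 difference was 1.03 ± 0.62, with a 95% interval of -0.29 to 2.34 (limma adjusted p = 0.320), and 0.34 without library 1. ssa-miR-21b-5p (0.39), ssa-miR-100a-5p_R-1 (0.41), ssa-miR-30b-5p_R-1 (0.30), ssa-let-7a-5p (0.48) and ssa-miR-199a-5p (-0.12) had smaller log2 differences, with limma adjusted p from 0.525 to 0.887. ssa-miR-143-3p_R+1, a smooth muscle and stromal miRNA, had a difference of 1.16 ± 0.42 (limma adjusted p = 0.115). ssa-miR-146a-5p, which restrains inflammatory signalling in mammals, had -1.43 ± 0.54 (limma adjusted p = 0.132) with groups that did not overlap, from 71856 to 164554 at 3 h and from 33205 to 52861 at 24 h.

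Of the miR-122, miR-92, miR-731, miR-210 and miR-462 families, none of 28 tested rows passed, where 4.34% of all 622 rows did. At that share few of 28 rows would pass, so this count does not set these families apart. ssa-miR-210-3p had 2956, 1787 and 994 at 3 h and 1048, 1014 and 1138 at 24 h. The 24 h values lay within the range of the 3 h values, and the log2 difference of -0.71 ± 0.48 had a 95% interval of -1.72 to 0.31 (limma adjusted p = 0.389). All 5 miR-210 rows had differences below 0, the lowest at -0.88. ssa-miR-462a-5p and ssa-miR-731-5p, which share a precursor cluster in fish, had differences of 0.13 ± 0.60 and -0.36 ± 0.62.

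The series' design text singles out one row, sha-miR-92a_L+2R+4, which is miR-92a with 2 extra bases at the 5′ end. It had 43, 91 and 158 at 3 h and 20, 18 and 40 at 24 h, so every 24 h library was below every 3 h library. Its log2 difference was -1.77 ± 0.58 with a limma adjusted p of 0.0910. The exact two-sided permutation test over the 6 libraries gave p = 0.1, the smallest that 3 against 3 can give.

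By list, epithelial and bile duct rows had the highest median log2 difference, 0.64 over 12 rows, and white blood cell and inflammation rows the lowest, -0.94 over 38, against -0.25 over all 622. Of 49 hepatocyte rows, 4 were higher (miR-101a, miR-101b, miR-152 and miR-192b) and 1 was lower (miR-22b), which is 10.2% called against 4.34% of all 622 rows, with a median of 0.29. This list was chosen with earlier results of these data known and is broader than the hepatocyte markers above. Of those markers 16 rows were tested and 1 was called. Without library 1, of the called hepatocyte rows only those of miR-101 passed. The median of the hepatocyte list was then -0.05 and that of the epithelial list -0.11. The miR-192 rows summed to 20579, 20992 and 15057 at 3 h and to 48219, 15864 and 19053 at 24 h.

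Of 128 rows on the hypoxia-responsive list, 1 was higher (miR-181a-1-3p) and 3 were lower (ola-miR-26_L+2R+1, ssa-miR-23a-3-5p_R+1 and the miR-199a variant), which is 3.12% called, near the 4.34% of all rows, with a median of -0.27. Of 38 rows of the miR-17-92 family clusters, 2 were higher (5.26% called) and the median was -0.57. Of 32 red blood cell rows, 2 were lower (miR-486 and miR-15d, 6.25% called) and the median was -0.80. The white blood cell list had 1 higher row of 38, miR-181a-1-3p (2.63% called). miR-150, a lymphocyte miRNA, summed to 3701, 3316 and 4709 at 3 h and to 1383, 5113 and 3525 at 24 h, groups that overlapped.

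The endothelial and stromal list had 1 lower row of 34 (the miR-199a variant) and a median of 0.15. The let-7 list had 1 lower of 32 (the let-7g-3p variant) with a median of -0.11. The metabolic list had 1 lower row of 41 (ola-miR-26_L+2R+1) and a median of -0.24. These shares of 2.94%, 3.12% and 2.44% called rest on 1 row each and lie near the 4.34% of all rows. The neural and endocrine list had 1 higher (miR-128) and 1 lower (miR-138) of 10, the muscle list 1 higher of 3, and the teleost list none of 24, with medians of 0.28, 0.60 and -0.54, and in lists this short 1 row moves the share called far from 4.34%. The neural markers miR-9 and miR-124 were near 0, at 8 or less in all 6 libraries.

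**Figure D4:**
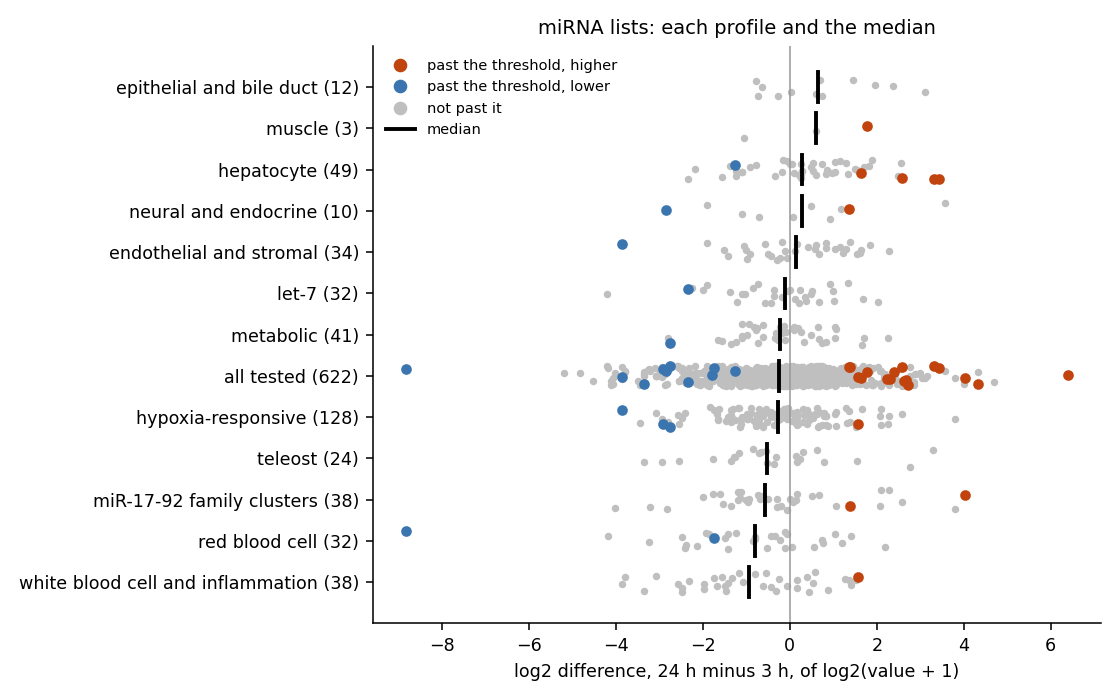
Each point is a tested row placed by its log2 difference (24 h minus 3 h) and by miRNA list, with the number of rows in brackets; red and blue points passed the threshold and the black bar is the median. List medians run from -0.94 to 0.64, against -0.25 over all 622 rows.

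Forms with extra bases at the 5′ end were scarcer at 24 h than at 3 h relative to the main form they were set against. A pair was counted where a row, without its first 1 or 2 bases, shared 16 bases from the 5′ end with a more abundant tested row. The main form was the most abundant such row, which can be another member of the family. The 46 pairs, on 27 main forms, were defined after the values were seen, and pairs with the same main form share its values. For ssa-miR-146d-5p_L+1 (454, 329 and 2150 at 3 h, 513, 65 and 157 at 24 h) the main form was ssa-miR-146a-5p, with a change of -0.54. Its ratio to ssa-miR-146d-5p (4431, 2008 and 12350 at 3 h, 2652, 424 and 774 at 24 h) was not taken. In each library the log2 ratio of the extended to the main form was taken, which no scaling of libraries moves apart from the pseudocount of 1. The mean ratio was lower at 24 h than at 3 h in 43 of 46 pairs, with a median change of -1.77 and a range of -4.70 to 0.91. In 5 of the 46 pairs the extended form was under 10 in all 24 h libraries. The form with the change of -4.70, dre-let-7a_L+2_2ss19AG21AG, had 0, 16 and 13 at 24 h. Its name gives base changes at 19 and 21, so it differs from its main form, ssa-let-7a-5p, in more than the added bases. Where a form was listed at 0, the pseudocount sets the ratio, so the size of such a change is uncertain. Of the extended forms, 3 reached the filter mean of 10 only through the 3 h libraries, so their lower ratios are no support for a difference. Without them 40 of 43 pairs were lower, with a median change of -1.66, and in 26 all 3 libraries of 24 h were below all 3 of 3 h.

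In 29 of the 46 pairs, or 26 of the 43 without those 3 forms, all 3 libraries of 24 h were below all 3 of 3 h. In 1 pair all were above. The median ratio over the pairs was -8.44, -7.86 and -7.12 in the 3 h libraries and -10.26, -8.95 and -9.67 in the 24 h libraries, so the groups did not overlap. With libraries 2 and 3 of 24 h alone, 41 of 46 pairs were lower, those 3 forms among them, and the median change was -1.63. The control libraries were spread more widely, at -9.91, -7.62 and -7.32, and the other 2 groups lay between -9.91 and -8.71.

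The 14 pairs with 2 added bases were all lower, with a median change of -2.62. Of 32 pairs with 1 added base 29 were lower, with a median of -1.32. The 3 forms that reached the filter only through the 3 h libraries are all among these 29. As rows in their own right, 41 of the 46 extended forms had a difference below 0 and the median was -1.80. Over all 622 rows, 354 were below 0 (56.9%) and the median was -0.25. Without the 3 forms that reached the filter only through 3 h, 38 of 43 extended forms were below 0. Only 1 of the 46 passed the test, ola-miR-26_L+2R+1, which is 2.17% against 4.34% of all rows. The main form ssa-miR-26a-5p had 6447, 9144 and 8522 at 3 h and 16390, 6277 and 5843 at 24 h, groups that overlapped. Relative to it the extended form changed by -2.85 on the log2 scale. The corresponding change was -1.84 for sha-miR-92a_L+2R+4 relative to ssa-miR-92a-3p, and -2.39 for aca-let-7a-5p_L+2R-1 relative to ssa-let-7a-5p.

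**Figure D5:**
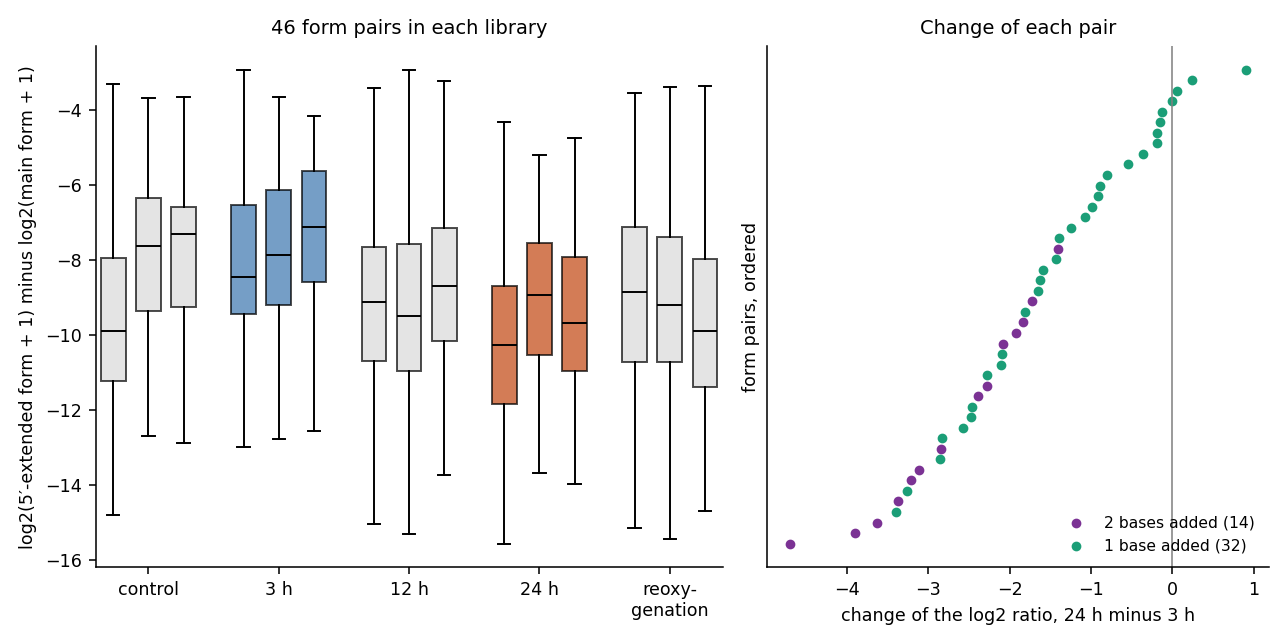
Left, the log2 ratio of the 5′-extended to the main form of 46 pairs in each of the 15 libraries. Boxes are quartiles, lines are medians, and whiskers leave out outlying pairs, which are not drawn. Right, the change of the mean ratio from 3 h to 24 h for each pair. The medians of the 24 h libraries lie below those of the 3 h libraries, and 43 of 46 pairs fall left of 0. Without the 3 extended forms that reached the filter only through the 3 h libraries, 40 of 43 pairs fall there.

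The miR-122 forms were among these pairs. The form with 2 added bases, fru-miR-122_L+2R-1, had 1429, 2378 and 2096 at 3 h and 504, 598 and 251 at 24 h, a log2 difference of -2.18 ± 0.60 that did not pass (limma adjusted p = 0.0529). It made up 0.183%, 0.265% and 0.443% of the main form at 3 h and 0.0138%, 0.0550% and 0.0354% at 24 h. The form with 1 added base, rno-miR-122-5p_L+1R-1, made up 0.195%, 0.195% and 0.300% at 3 h and 0.0315%, 0.0621% and 0.0516% at 24 h. Both shares were lower in every 24 h library than in any 3 h library.

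Of 5 tested rows matched to pal-miR-10014-5p, 3 rose, where 4.34% of all rows were called, and the others had differences above 0 that did not pass. The 5 rows are close variants of 1 sequence and are not separate members. Summed over forms labelled miR-10014-5p, the log2 difference was 2.52 (limma adjusted p = 0.021). The 3 rows that rose share the first 16 bases of miR-122-5p. pal-miR-10014-5p_1ss17AT also shares base 17, and the other 2 differ from that base on. They are shown here beside miR-122-5p, with the bases after the first 16 in capitals.
ssa-miR-122-5p_R-1: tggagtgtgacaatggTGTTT
pal-miR-10014-5p: tggagtgtgacaatggAAA
pal-miR-10014-5p_1ss17AT: tggagtgtgacaatggTAA
pal-miR-10014-5p_R+1: tggagtgtgacaatggAAAA

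pal-miR-10014-5p had 361, 116 and 150 at 3 h and 2066, 774 and 586 at 24 h, a log2 difference of 2.40 ± 0.55 (limma adjusted p = 0.0269). pal-miR-10014-5p_1ss17AT had 493, 163 and 184 at 3 h and 3420, 1145 and 993 at 24 h (2.67 ± 0.63, limma adjusted p = 0.0298). pal-miR-10014-5p_R+1 had 114, 47 and 54 at 3 h and 549, 236 and 242 at 24 h (2.24 ± 0.56, limma adjusted p = 0.0368). All 3 rows were above their 3 h range in every 24 h library, and library 1 was the highest library of both groups for each.

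Library 1 also held the most miR-122. As a percent of the main form, pal-miR-10014-5p was at 0.0462, 0.0129 and 0.0317 at 3 h and at 0.0566, 0.0712 and 0.0827 at 24 h, which did not overlap. Without library 1 the log2 differences of the 3 rows were 1.86, 2.11 and 1.84 and none passed (limma adjusted p = 0.0824, 0.0912 and 0.104).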

How the data were processed

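Small RNA libraries from rainbow trout liver were grouped by the sample labels into 5 groups of 3. Each cell of the deposited table was treated as a score: the authors normalized the values in an unstated way and rounded them. The table is called TPM in its name, but library sums differ. A p-value column that the authors deposited, under 0.05 in 230 of 1213 rows and from an unnamed test, was not used. For the aligner, annotation and genome build, the entry is: not given in the sources used here. Without a genome no coordinates can be printed, and reads may be shared by forms that differ in 1 base or at an end. A species prefix in a row name is the entry matched, not the organism.

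Rows with identical values were counted once, and those with a mean of at least 10 were fitted as log2(value + 1), which understates changes of rows with low values, with limma 3.58.1 in R 4.3.3 (trended variance, all 5 groups in 1 fit, 10 residual degrees of freedom, 622 rows). p-values were adjusted by Benjamini-Hochberg over all tested rows, at a threshold of 0.05. Tables and figures were made with Python 3.11.15, pandas 2.3.3, numpy 2.4.6 and matplotlib 3.10.9. The fit was tested on simulated data. The row sha-miR-92a_L+2R+4 had an exact two-sided permutation test. Lists match by miRNA number and are described by counts and medians.

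The comparison, the lists and the rows were chosen with earlier results of these data known. Named were up to 15 largest rises and 15 largest falls past the threshold, the 10 most abundant rows, the 2 most abundant of each list, and the families of miR-122, miR-92, miR-731, miR-210 and miR-462, with minor forms by range. Partner strands, rows that share a seed, marker rows, the classes by sequence end or species of the entry, and miR-25 were chosen after their values were seen. Alternatives were other pseudocounts, filters, scalings, variance models, form sums, a GC correction (lowess, span 0.5), a replicate block, the 6 libraries alone and each library left out.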

Additional observations from a re-analysis of the deposited data

How the results depend on the processing

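The count of 27 rows past the threshold (17 higher, 10 lower) was 17 with no filter on low values, 16 with forms summed, 5 with only the 6 libraries compared (153 at an unadjusted p under 0.05) and 131 with array weights, which put less weight on libraries that stand apart. Leaving out each library in turn gave 5 to 26, with 9 without library 1 of 24 h, 8 without library 2 of 3 h and 5 without library 3 of 3 h. In settings chosen after seeing the data, leaving out library 1 of 24 h together with library 1 of reoxygenation gave 74, and a GC correction without library 1 of 24 h gave 12. The remaining pseudocounts, filters, scalings and variance models gave 18 to 30, and using all rows of the table, or leaving out library 1 of reoxygenation alone, gave 37. Scaling to the library total gave 26, but with 8 higher and 18 lower, and moved the median over all rows from -0.25 to -0.88; without miR-122 in the total it gave 23, with 9 higher and 14 lower, at a median of -0.62. Quantile normalization moved the median to -0.09 and gave 27, of which 23 were shared. Array weights gave 57 higher and 74 lower, and the setting without both first libraries 28 and 46. The GC correction gave 28, with 15 higher and 13 lower.

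Both miR-101 rows and the miR-486 row passed in all 27 alternatives, and mmu-miR-5099_L+2R-1 in all 26 that kept it. In 7 of the 27 rows fewer than 15 alternatives kept the call, ssa-miR-128-3p and ssa-miR-338a-3p_R-1 the fewest at 11. None of the 27 rows changed direction in any alternative. The miR-92a row's difference of -1.77 was 0.94, with an exact permutation p of 0.2, in a sum over miR-92a forms named without 5p or 3p, which leaves out ssa-miR-92a-3p; without each library in turn it was -2.25 to -1.33.

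With the replicate block the count was 27 (16 higher, 11 lower), of which 23 were shared with the fit without it, and with the block and the GC correction it was 34. The correlation of deviations between libraries of the same number was -0.006, 0.116 and -0.182. Between libraries of different numbers it ran from -0.161 to 0.177. With 3 libraries a group this cannot decide whether the numbers pair the libraries, which the labels do not say. Since read depth is unknown, rows listed at 0 may lie below detection, and with 3 libraries a group a missed threshold does not show equal levels.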
